A study of Mus musculus with 12 samples.

Results

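The brush border of the small intestine carries peptidases that trim dietary peptides and carriers that take up the products. Of the genes that do this work, 9 were followed by name: the peptidase genes Anpep, Enpep, Mep1a, Mep1b and Dpp4, and the carrier genes Slc15a1, Slc6a19, Slc3a1 and Slc7a9. All 9 were found among the 45808 genes of the deposited table, and all 9 passed the filter on low values. The RNA was extracted from the distal ileum of BALB/c mice. Treatment with P. gingivalis, a bacterium of the mouth known from periodontitis, is the label of 6 libraries, and PBS control that of the other 6. Apart from strain and tissue the labels give no age, sex, dose, route or duration. They do not say whether each library came from its own mouse, so the p-values below measure the spread between these samples, which may be technical.

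Enterocytes, the absorptive cells of the villus, finish protein digestion at their luminal membrane. Aminopeptidases and dipeptidyl peptidases cut short peptides down from the end, meprins cut within the chain, and the products enter as single amino acids or as small peptides through separate carriers. Carriers of the basolateral membrane then pass the amino acids on to the blood. These proteins differ in where along the gut they are most abundant, so the position of a tissue piece matters for their levels.

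The P. gingivalis libraries held 6553306 to 9875045 recovered reads and the PBS libraries 7610970 to 10378841. Values below are normalized counts, that is, reads per gene divided by 1 scale factor per library. Libraries are named by group and by the number in their title. The label of distal ileum was checked with Fabp6, the ileal bile acid binding protein, and Slc10a2, the ileal bile acid carrier. Fabp6 stood at 2.52 and 16.0 in P. gingivalis replicates 1 and 5 and at 4.32 in PBS replicate 6, against 11246 to 69383 in the other 9 libraries. Slc10a2 gave 23.9, 57.2 and 90.7 there, against 1236 to 4007 elsewhere. Fabp1, which binds fatty acids mainly in the proximal gut, was at least 16938 in these 3 libraries and at most 1821 in the others, and P. gingivalis replicate 6 had the lowest Fabp1, at 18.3. Since 3 of the 12 libraries lacked the ileal pattern, differences of the 9 genes are given with and without them. The same holds for other pathway genes whose 3 highest or 3 lowest values lie there, except Slc7a6. In whole tissue, fewer enterocytes and less RNA per enterocyte cannot be told apart.

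None of the 9 genes passed the test between the groups. Each difference is P. gingivalis minus PBS in log2(normalized count + 1), followed by its standard error (SE). Tests were run with limma over all 15025 genes with a mean of at least 10. The share of genes called at an adjusted p of 0.05 was 0% over all genes tested, so the count of 0 of 9 is the count of the whole table. At an unadjusted p under 0.05 there were 560 of the 15025 genes, a share of 3.73%, and 0 of the 9. Leaving out P. gingivalis replicate 6 gave 52 lower and 1 higher call over all genes, leaving out PBS replicate 5 gave 7 lower, leaving out P. gingivalis replicate 2 gave 1 lower and leaving out PBS replicate 6 gave 1 higher, with none of the 9 among them. In none of the 9 were the groups free of overlap, where 25 of all genes tested, a share of 0.166%, were. Of the 9 genes, 8 had a negative difference and 1 a positive one, with a median of -0.16, beside 51.1% negative and a median of -0.0039 over all genes tested. With P. gingivalis replicate 6 left out, Enpep stood at 0.044, Dpp4 at 0.045, Slc15a1 at 0.067 and Slc3a1 at 0.00072. Mep1a, Mep1b, Slc6a19 and Slc7a9 stayed negative without that library, and Anpep stayed positive. The 9 genes varied together across the libraries, so the count of signs is a description only.

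Anpep encodes aminopeptidase N, which removes neutral residues from the amino end of peptides. It lies on chromosome 7 from 79821803 to 79861059 on GRCm38. In the P. gingivalis libraries it ran from 16354 over a median of 33641 to 57759 normalized counts, and in the PBS libraries from 22103 over 31297 to 41858. The lowest and the highest library were both in the P. gingivalis group, replicates 6 and 2, and the PBS range lay inside the P. gingivalis range. Its difference of 0.16 (SE 0.30, limma adjusted p = 0.992) was the positive one of the 9, with a 95% interval from -0.49 to 0.80.

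Enpep encodes aminopeptidase A, which removes acidic residues, and lies on chromosome 3 from 129269175 to 129332720. It ran from 13152 over a median of 20718 to 27782 in the P. gingivalis libraries and from 16148 over 20740 to 22426 in the PBS libraries. The medians differed by less than the SD of either group. The difference was -0.02 (SE 0.21, limma adjusted p = 0.999), with a 95% interval from -0.46 to 0.42.

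Dpp4 encodes dipeptidyl peptidase 4, which releases dipeptides that end in proline or alanine, and lies on chromosome 2 from 62330073 to 62412231. It ran from 5076 over 8529 to 12191 in the P. gingivalis libraries and from 7406 over 8901 to 10452 in the PBS libraries. P. gingivalis replicate 6 held the lowest value and replicate 2 the highest, with all PBS libraries between them. The difference was -0.10 (SE 0.20, limma adjusted p = 0.992).

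Mep1a and Mep1b encode the alpha and beta subunits of meprin, a zinc endopeptidase of the astacin family. Mep1b, on chromosome 18 from 21061923 to 21100199, ran from 5791 over 8160 to 11407 in the P. gingivalis libraries and from 8465 over 9214 to 10231 in the PBS libraries. Its values were close together in PBS, with a coefficient of variation of 6.32% against 27.6% after P. gingivalis. The difference was -0.23 (SE 0.17, limma adjusted p = 0.992).

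Mep1a, on chromosome 17 from 43474324 to 43502812, spanned the widest range of the 9 genes, 10.2-fold between its lowest and highest library. It stood at 1214, 12435, 10727, 6844, 2638 and 7060 in P. gingivalis replicates 1 to 6, and at 12044, 9364, 8364, 8196, 9514 and 3889 in PBS replicates 1 to 6. The 3 lowest values were those of the 3 libraries with Fabp6 under 100, from both groups. The group difference was -0.63 (SE 0.50, limma adjusted p = 0.992) with all libraries and -0.07 (limma adjusted p = 0.9995) without those 3. Leaving out P. gingivalis replicate 1 alone gave -0.21.

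Slc15a1, on chromosome 14 from 121459621 to 121505252, encodes PEPT1, the carrier that brings small peptides into the cell together with protons. It ran from 4630 over a median of 11183 to 18547 in the P. gingivalis libraries and from 7527 over 11951 to 17239 in the PBS libraries. P. gingivalis replicate 2 was highest, followed by PBS replicate 6, and P. gingivalis replicate 6 was lowest. The difference was -0.16 (SE 0.32, limma adjusted p = 0.992), with a 95% interval from -0.85 to 0.52.

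Slc6a19 encodes the main sodium-coupled carrier of neutral amino acids and lies on chromosome 13 from 73679745 to 73704865. It ran from 6145 over 9225 to 16205 in the P. gingivalis libraries and from 8180 over 10580 to 12328 in the PBS libraries. Again both ends of the range were P. gingivalis libraries, replicates 6 and 2. The difference was -0.17 (SE 0.23, limma adjusted p = 0.992).

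Slc3a1 and Slc7a9 encode the heavy and light chains of the carrier for cystine and dibasic amino acids; loss of either chain causes cystinuria. Slc3a1, on chromosome 17 from 85028376 to 85064236, ran from 2289 over 3311 to 4953 in the P. gingivalis libraries and from 3216 over 3383 to 3864 in the PBS libraries. Slc7a9, on chromosome 7 from 35448796 to 35466036, ran from 1661 over 1863 to 3157 in the P. gingivalis libraries and from 2010 over 2424 to 2782 in the PBS libraries. The differences were -0.05 (SE 0.16, limma adjusted p = 0.995) for Slc3a1 and -0.22 (SE 0.16, limma adjusted p = 0.992) for Slc7a9. Slc3a1 overlaps the protein coding gene Prepl on the opposite strand. Prepl averaged 204 over the 12 libraries, and without a stated strand setting the reads of the shared stretch cannot be assigned with certainty.

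The levels of Mep1a and Slc15a1 had a Pearson correlation of 0.10 over the 12 libraries and 0.53 over the 9 with Fabp6 of at least 100. The window of Slc3a1 alone held the longer motif below. Sequences just upstream of the RefSeq starts of these genes are shown. They are the 250 bases before the start from RefSeq (GRCm38.p6), 5′ to 3′ on the coding strand, at chr17:43502774-43503023 on the minus strand, chr14:121505255-121505504 on the minus strand and chr17:85028097-85028346 on the plus strand. Capitals mark matches to CAAAGTCCA or its first 6 letters CAAAGT, known from sites of HNF4, a nuclear receptor of enterocytes, and to AGATAA, known from sites of GATA factors.
Mep1a: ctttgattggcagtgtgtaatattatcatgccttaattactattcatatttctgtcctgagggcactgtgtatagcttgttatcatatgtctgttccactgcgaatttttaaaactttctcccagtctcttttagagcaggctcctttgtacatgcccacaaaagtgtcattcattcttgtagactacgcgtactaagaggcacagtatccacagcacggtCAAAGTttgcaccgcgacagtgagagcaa
Slc15a1: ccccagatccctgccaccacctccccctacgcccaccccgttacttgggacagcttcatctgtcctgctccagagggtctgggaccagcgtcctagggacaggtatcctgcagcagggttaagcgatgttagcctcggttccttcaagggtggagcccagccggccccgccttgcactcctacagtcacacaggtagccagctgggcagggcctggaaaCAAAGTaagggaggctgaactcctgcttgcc
Slc3a1: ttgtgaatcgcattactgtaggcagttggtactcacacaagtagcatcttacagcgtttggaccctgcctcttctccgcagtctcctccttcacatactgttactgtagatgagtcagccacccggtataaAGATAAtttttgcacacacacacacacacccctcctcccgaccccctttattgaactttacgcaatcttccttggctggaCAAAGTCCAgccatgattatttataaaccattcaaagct

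Windows were found for 8 of the 9 genes, and both strands were searched. The RefSeq starts differ in part from the gene positions given above, which are from GENCODE M21. On the minus strand the Mep1a window begins at 43502774, while the GENCODE gene reaches to 43502812. The CAAAGT of Mep1a thus lies inside that gene. Windows of Anpep, Slc6a19 and Slc7a9 lie wholly inside their GENCODE genes. CAAAGTCCA occurred in the window of Slc3a1 alone among the 8 and in 0.384% of all 32851 windows of this length. CAAAGT, which overlaps it, occurred for Mep1a, Slc15a1 and Slc3a1 and in 12.6% of all windows. In these 3 genes it began 29, 31 and 39 bases before the RefSeq start. AGATAA occurred for Dpp4, Slc3a1 and Slc7a9 and in 9.99% of all windows. GTTAAT, from sites of HNF1, and TTTATG, from sites of CDX factors, occurred for none of the 8 and in 6.43% and 10.8% of all windows. A match in these letters is a description and not a shown binding site. Mep1a and Slc15a1 both held CAAAGT, and whether this bears on their levels was not tested.

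**Figure D1:**
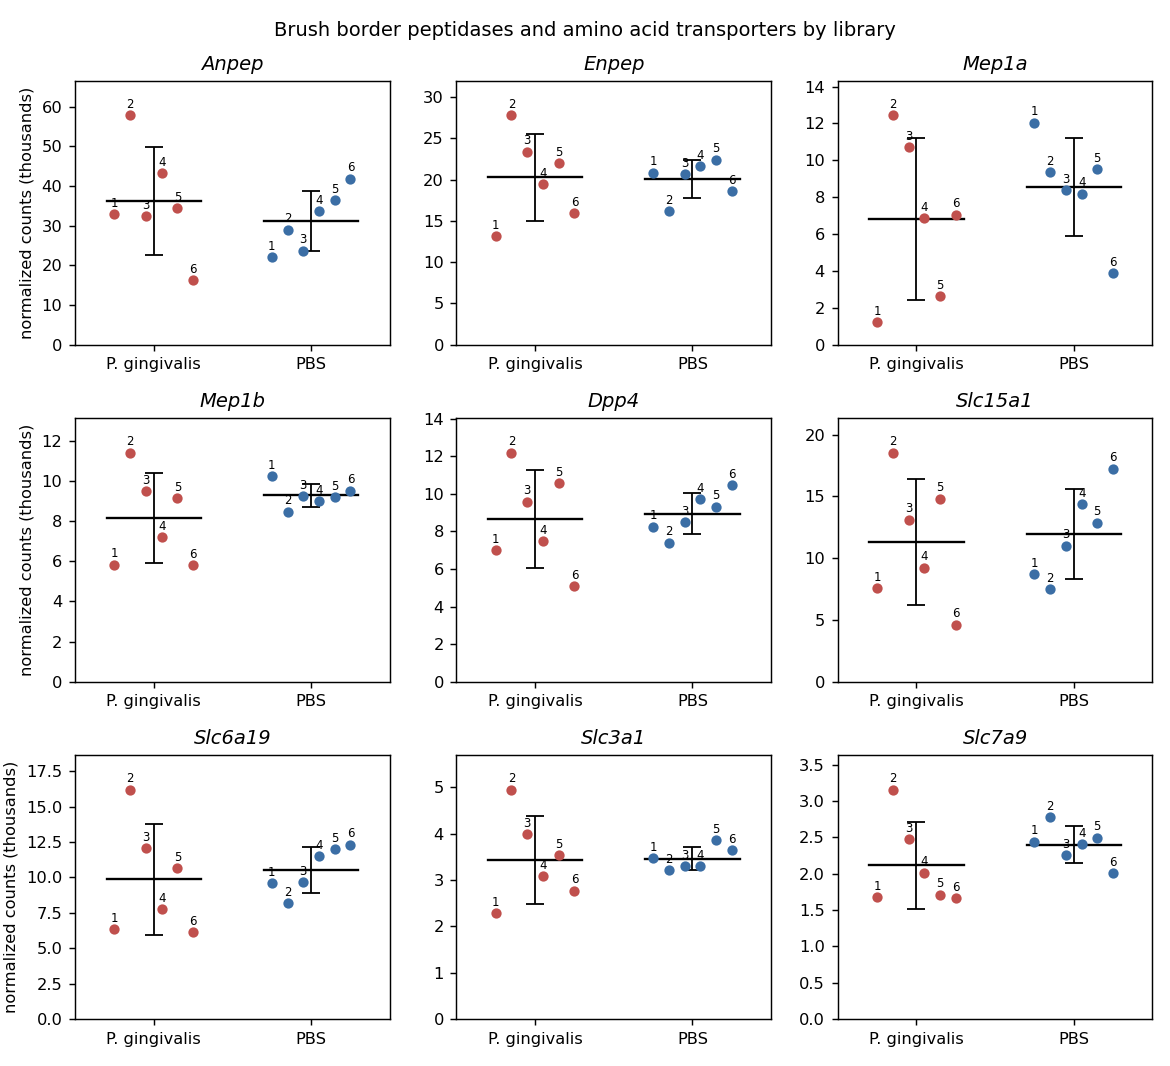
Normalized counts (vertical axes scaled as marked, starting at 0) of the 9 genes in 6 P. gingivalis and 6 PBS libraries; numbers are replicate numbers, horizontal lines are group means and bars are 1 SD. In all 9 panels P. gingivalis replicate 2 is the highest point, and the lowest is P. gingivalis replicate 1 or 6.

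The intervals of the 9 differences bound what these libraries could show. The narrowest was that of Slc7a9, from -0.55 to 0.12, which corresponds to 0.682-fold to 1.09-fold. The widest was that of Mep1a, from -1.70 to 0.44, or 0.307-fold to 1.36-fold. A missed threshold does not show equal levels, and for Mep1a the interval reaches down to 0.307 of the PBS level. Without the 3 libraries with Fabp6 under 100 the difference was 0.25 for Anpep, 0.069 for Enpep, 0.077 for Slc3a1 and -0.17 for Mep1b. It was -0.075 for Dpp4, -0.070 for Slc15a1, -0.036 for Slc6a19 and -0.13 for Slc7a9. Run on the recovered reads, edgeR tested 14907 genes and called 0, while 542 had an unadjusted p under 0.05 and none of the 9 was called. DESeq2 called 33 of 18239, a share of 0.181% (0.0164% higher and 0.164% lower), and none of the 9. Counted over these 2 tools, the lowest adjusted p of the 9 genes was 0.993.

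**Figure D2:**
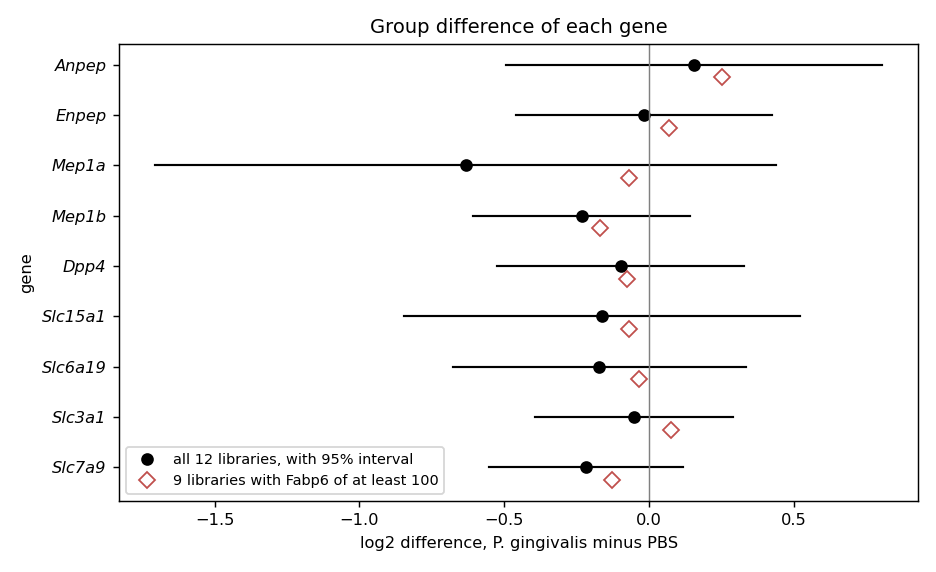
Log2 difference (horizontal axis, P. gingivalis minus PBS) of each of the 9 genes. Black points with lines are the limma estimates from all 12 libraries with 95% intervals, all of which include 0; open diamonds are the estimates from the 9 libraries with Fabp6 of at least 100, where Mep1a moves to -0.07 and the other 8 lie between -0.17 and 0.25.

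Between genes, levels were compared per kilobase of merged exons in GENCODE M21. On this scale Anpep was the highest, with 8745 ± 3309 normalized counts per kb in P. gingivalis and 7528 ± 1845 in PBS libraries (SD, n = 6 each). Enpep followed with 4311 ± 1120 in P. gingivalis and 4259 ± 487 in PBS, then Mep1b with 3100 ± 855 in P. gingivalis and 3532 ± 223 in PBS. In all 12 libraries these 3 genes stood in this order and above the other 6. Slc15a1, Mep1a and Slc6a19 came next, with means over the 12 libraries of 2384, 2228 and 2039 per kb, and their order was not fixed. Slc15a1 exceeded Mep1a in 5 of 12 libraries and Mep1a exceeded Slc6a19 in 9 of 12. Slc3a1 at 1520 per kb and Dpp4 at 1392 per kb likewise changed places, with Slc3a1 above Dpp4 in 8 of 12. Slc7a9 had the lowest mean, at 791 ± 224 per kb in P. gingivalis and 896 ± 96.1 in PBS, and was lowest in 11 of 12 libraries. The exception was P. gingivalis replicate 1, where Mep1a stood at 352 per kb and Slc7a9 at 625 per kb. Together the 9 genes took 0.901% to 1.84% of all reads in P. gingivalis libraries and 1.17% to 1.45% in PBS libraries.

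The spread between libraries was wider after P. gingivalis for each of the 9 genes. On the log2 scale the SD of Slc3a1 was 0.39 in P. gingivalis and 0.10 in PBS libraries, that of Mep1b 0.40 and 0.09, and that of Slc6a19 0.56 and 0.23. A larger SD in the P. gingivalis group was found for 69.5% of all 15025 genes tested, and the difference in spread was not tested. P. gingivalis replicate 2 had the highest value of all 12 libraries for 9 of the 9 genes, while it was highest for 12.9% of all genes tested. The lowest value lay in P. gingivalis replicate 6 for 6 genes (Anpep, Mep1b, Dpp4, Slc15a1, Slc6a19 and Slc7a9), and replicate 1 of that group was lowest for Enpep, Mep1a and Slc3a1. Over all genes tested these 2 libraries were lowest for 19.7% and 12.9%.

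Epithelial markers had their highest and lowest means in the libraries of these extremes, while muscle and enterocyte markers followed them only in part. The mean log2 level of 11 epithelial markers, among them Epcam, Cdh1 and Vil1, was 12.85 in P. gingivalis replicate 2, 12.01 in replicate 6 and 11.96 in replicate 1, and ranged from 12.33 to 12.61 in PBS libraries. The mean of 7 smooth muscle markers was 9.69 in P. gingivalis replicate 2, 11.35 in replicate 6 and 9.97 in replicate 1, with 10.36 to 11.06 in PBS. Muscle thus ran opposite to epithelium in replicates 2 and 6, while in replicate 1 both lay below the PBS range. The mean of 13 enterocyte markers was 14.08 in P. gingivalis replicate 2, 11.94 in replicate 6 and 13.88 in replicate 1. It was 13.235 to 14.13 in PBS libraries and highest, at 14.32, in P. gingivalis replicate 5. That library had an epithelial mean of 12.19, also below the PBS range, but was at neither extreme for any of the 9 genes. No epithelial or muscle marker was at 0 in all libraries. Their summed normalized counts ran from 72954 to 142053 in P. gingivalis and from 99244 to 115657 in PBS for epithelium, and from 7929 to 27820 in P. gingivalis and from 12479 to 21452 in PBS for muscle. The part of tissue composition in the spread was not tested. With the epithelial mean in the model as a covariate, the difference was 0.32 for Anpep and -0.25 for Mep1a, the other 7 lay between -0.11 and 0.11, and none was called.

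Anpep, Dpp4 and Enpep are also known from other cells, Anpep from myeloid cells, Dpp4 from T cells and Enpep from pericytes. In P. gingivalis replicate 2, where all 9 genes were highest, myeloid and pericyte markers lay below the PBS range and T cell markers inside it. There the mean log2 level was 7.38 for 6 myeloid markers, 7.69 for 5 pericyte markers and 3.96 for 7 T cell markers, against 7.57 to 7.89, 8.203 to 8.80 and 3.65 to 5.26 in the PBS libraries. B cell markers were at 3.34 in that library and at 3.05 to 6.43 in PBS. In P. gingivalis replicates 6 and 1, which held the lowest values of the 9 genes, myeloid markers stood at 7.97 and 8.25. Pericyte markers stood at 9.29 and 8.42 there, and T cell markers at 4.85 and 5.15. The part of these cells in the levels of Anpep, Dpp4 and Enpep was not tested. Mesothelial and fat cell markers were lower on average in the P. gingivalis group. The mean log2 level of 5 mesothelial markers lay between 3.65 and 4.75 in P. gingivalis and between 5.17 and 6.09 in PBS libraries, with no overlap, and that of 7 fat cell markers between 2.20 and 7.45 in P. gingivalis and between 6.89 and 9.14 in PBS. Their summed normalized counts ran from 398 to 617 in P. gingivalis and from 515 to 778 in PBS for mesothelium, and from 448 to 2299 in P. gingivalis and from 1549 to 6833 in PBS for fat, with none at 0 in all libraries. The part of this difference in the results was not tested. Crypt markers lay from 9.999 to 10.34 in P. gingivalis and from 9.85 to 10.26 in PBS libraries. Exocrine pancreas markers summed to at most 9.34 normalized counts per library, with Amy2a5 at 0 in all 12, and renal tubule markers, a tissue that shares several of the 9 genes, to at most 20.2.

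Relative to the epithelial markers, the log2 SD of Slc3a1, Slc7a9 and Mep1b shrank in P. gingivalis, while in PBS only that of Slc7a9 did. For Slc3a1 it went from 0.39 to 0.14 in P. gingivalis and from 0.10 to 0.12 in PBS. For Slc7a9 it went from 0.38 to 0.08 in P. gingivalis and from 0.16 to 0.11 in PBS. For Mep1b it went from 0.40 to 0.18 in P. gingivalis and from 0.09 to 0.16 in PBS. The log2 level of Slc3a1 minus the epithelial mean lay between -0.80 and -0.41 in P. gingivalis and between -0.86 and -0.52 in PBS libraries. For Slc7a9 the same quantity lay between -1.45 and -1.23 in P. gingivalis and between -1.37 and -1.07 in PBS. For Mep1b it lay between 0.47 and 0.96 in P. gingivalis and between 0.54 and 0.87 in PBS. Mep1a had the widest range on this scale, between -1.72 and 0.83 in P. gingivalis and between -0.42 and 1.11 in PBS.

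Across the 12 libraries most of the genes varied together. Of the 36 pairs, 20 had a Pearson correlation of at least 0.7 on the log2 scale over the 12 libraries, and 28 had one over the 9 libraries with Fabp6 of at least 100. These are descriptions, since all values of a library share its tissue piece, its depth and its scale factor. The share of pairs over all genes with such a correlation was not counted. Dpp4 and Slc15a1 were the closest pair, at 0.98 over the 12 and 0.98 over the 9 libraries. Slc6a19 and Slc3a1 followed each other at 0.93 over both sets, and Slc3a1 and Slc7a9, the chains of one carrier, at 0.73 over the 12 and 0.81 over the 9. The correlations of Mep1a were spread widely. Over the 12 libraries they were -0.07 with Anpep, 0.10 with Slc15a1, 0.15 with Dpp4, 0.43 with Slc6a19, 0.55 with Mep1b, 0.62 with Enpep, 0.63 with Slc3a1 and 0.77 with Slc7a9. Over the 9 libraries those with Anpep, Slc15a1 and Dpp4 were 0.30, 0.53 and 0.67. Anpep likewise stood at 0.37 to 0.63 over the 12 libraries with Slc7a9, Mep1b, Enpep, Slc3a1 and Slc6a19.

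Among 11206 other genes with a mean of at least 50, those most like each of the 9 over the 12 libraries were found by Pearson correlation, again as a description. For Mep1a they were Dfna5, a gasdermin gene, at 0.99, Dpep1, a dipeptidase of the brush border, at 0.99 and Clca1, a protein secreted by goblet cells, at 0.99. For Mep1b they were Cldn4, a tight junction claudin, at 0.99, Aoc1, the diamine oxidase, at 0.97 and Pttg1ip at 0.96. For Dpp4 they were Clca4b at 0.99, the prolidase gene Pepd at 0.98 and Synj2bp at 0.98. Slc15a1 ran closest with the water channel gene Aqp1 at 0.97, with Tm4sf4 at 0.97 and with Susd2 at 0.96. Slc6a19 ran with Ralgps2, Cln8 and Ezr, the gene of the microvillus linker ezrin, at 0.96 to 0.97, and Anpep with Camsap3, Ldb3 and Fblim1 at 0.96 to 0.98. The 3 genes nearest to Enpep were Dnajc5, Tm9sf2 and Fam20b at 0.95 to 0.97, those nearest to Slc3a1 were Limd1, Itpk1 and Ist1 at 0.95 to 0.96, and those nearest to Slc7a9 were 2200002D01Rik, Dok4 and Ank3 at 0.96 to 0.97. Over the 9 libraries with Fabp6 of at least 100 these correlations ran from 0.903 to 0.996.

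**Figure D3:**
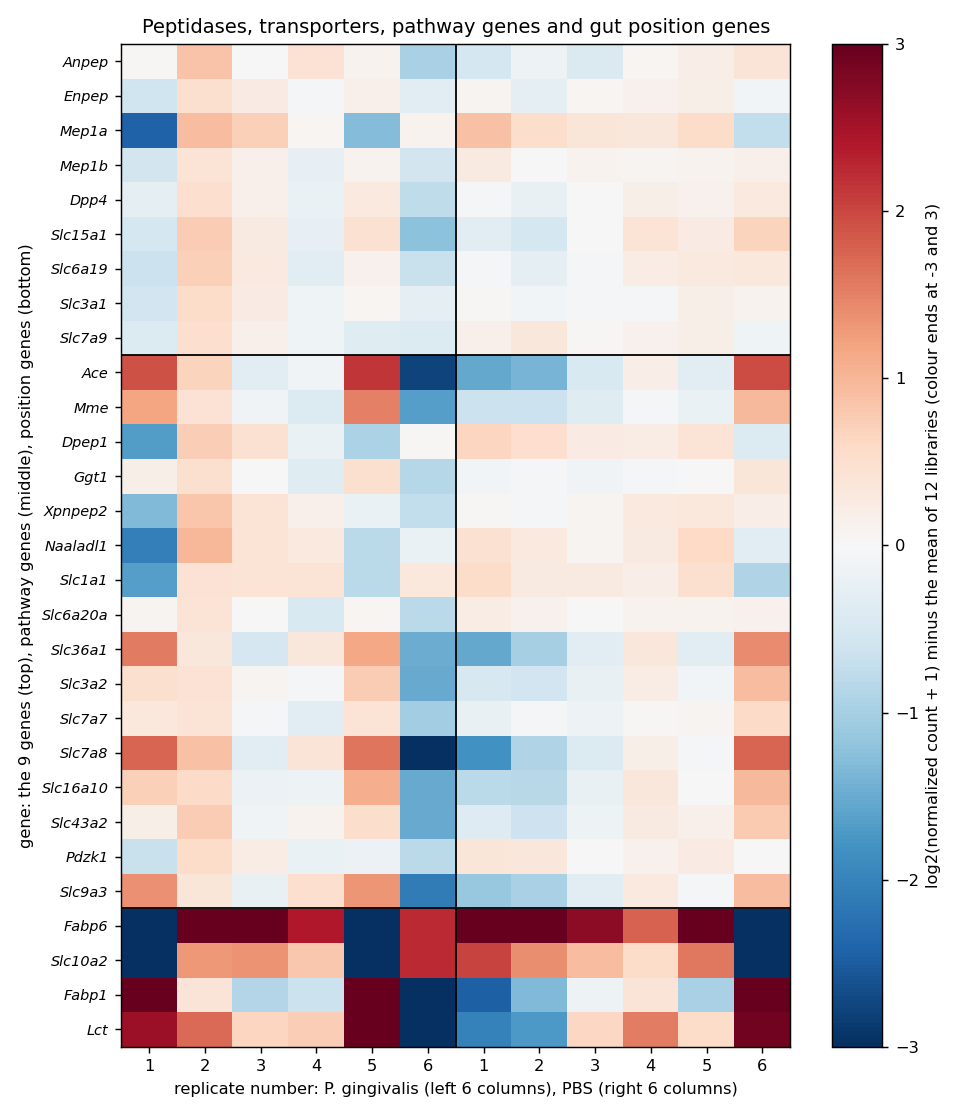
Log2 level of each gene (rows) minus its mean over 12 libraries (colour), in P. gingivalis replicates 1 to 6 on the left and PBS replicates 1 to 6 on the right. Mep1a, Dpep1, Naaladl1 and Slc1a1 are blue where Fabp6 is lowest (P. gingivalis replicates 1 and 5, PBS replicate 6), and Ace, Mme, Slc36a1 and Slc7a8 are red there.

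Where partners of one complex are compared within a library, the amount of epithelium affects both. The ratio of Mep1b to Mep1a was 4.80, 0.917, 0.883, 1.05, 3.46 and 0.820 in P. gingivalis replicates 1 to 6 and 0.849, 0.904, 1.10, 1.10, 0.968 and 2.44 in PBS replicates 1 to 6. The 3 libraries with Fabp6 under 100 had the 3 highest ratios, and in the other 9 the ratio stayed between 0.820 and 1.10. These counts are not scaled by exon length, and per kb Mep1b exceeded Mep1a in all 12 libraries. The mean log2 ratio was 0.59 ± 1.13 in P. gingivalis and 0.19 ± 0.56 in PBS libraries (SD, n = 6 each), which did not pass (difference 0.40, two-sided exact permutation p = 0.442, 0.662 adjusted over 3 ratios; the smallest p that 924 labelings allow is 0.00216). Without those 3 libraries the difference was -0.10 (exact permutation p = 0.373).

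The ratio of Slc7a9 to Slc3a1 ran from 0.485 to 0.731 in P. gingivalis and from 0.552 to 0.865 in PBS libraries. The mean log2 ratio was -0.70 ± 0.20 in P. gingivalis and -0.53 ± 0.21 in PBS libraries (SD, n = 6 each), a difference of -0.16 (exact permutation p = 0.201, 0.604 adjusted over 3 ratios). Without the 3 libraries with Fabp6 under 100 the difference was -0.20 (exact permutation p = 0.0317, 0.0952 adjusted over 3 ratios), which did not pass after adjustment.

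**Figure D4:**
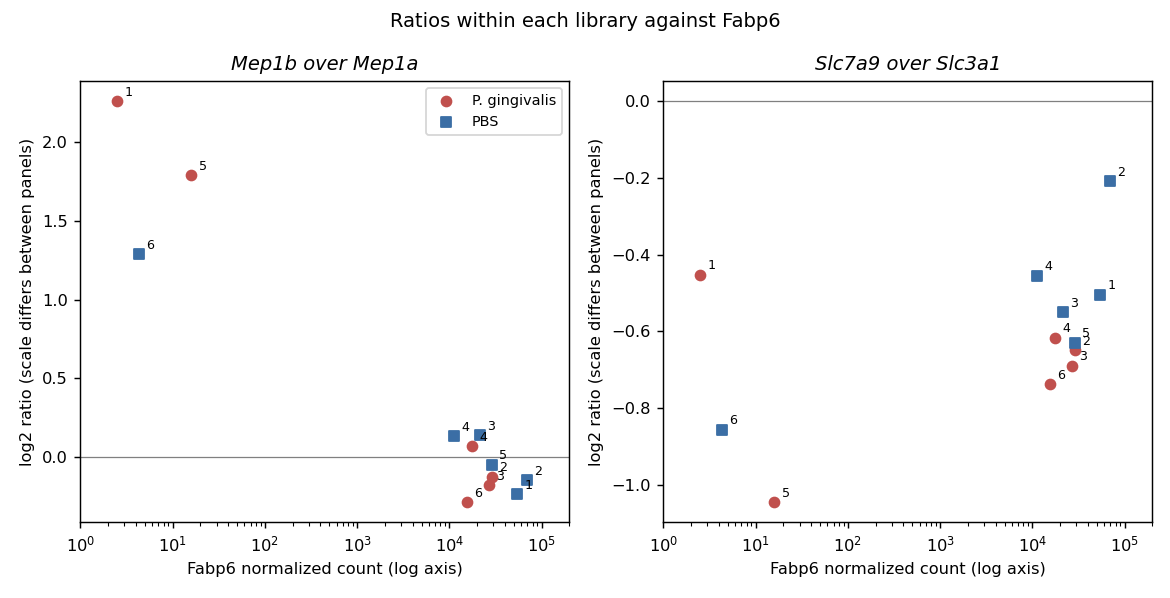
Log2 ratio within each library (vertical axes, with a scale of its own in each panel) of Mep1b over Mep1a and of Slc7a9 over Slc3a1 against the Fabp6 normalized count (log axis), with replicate numbers. The 3 libraries at the left, with Fabp6 from 2.52 to 16.0, have the 3 highest Mep1b over Mep1a ratios.

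Around these 9 genes, 35 other genes of protein digestion and amino acid uptake were examined as lists of peptidases, apical carriers, basolateral carriers and transport partners. Of these, 32 passed the filter, 13 with a positive and 19 with a negative difference, with a median of -0.03, beside -0.0039 over all genes tested. None passed (0 higher and 0 lower, limma adjusted p of at least 0.992). At an unadjusted p under 0.05 there was 1, Slc1a5, a glutamine carrier, which averaged 453 ± 142 in P. gingivalis and 650 ± 132 in PBS libraries (SD, n = 6 each), a difference of -0.55 (SE 0.19, limma adjusted p = 0.992). The share of genes under that p was 3.73% over all genes tested.

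Of the 13 other peptidases tested, 2 had a positive and 11 a negative difference. Ace, the angiotensin converting enzyme and a peptidase that releases dipeptides from the carboxyl end of peptides, ran from 1081 over a median of 9386 to 33115 in P. gingivalis and from 2562 over 5698 to 28663 in PBS libraries. Its 3 highest values, 28040, 33115 and 28663, were those of the libraries with Fabp6 under 100, the reverse of Mep1a. Mme, the endopeptidase neprilysin, behaved likewise, at 12726, 15988 and 10970 in these libraries and at 1792 to 7564 in the others. Dpep1, a dipeptidase, and Naaladl1, a peptidase of the same family as Folh1, went with Mep1a and had their 3 lowest values there, 1366, 2229 and 3241 for Dpep1 and 3376, 7871 and 11006 for Naaladl1. Xpnpep2, a membrane aminopeptidase for peptides with proline in the next position, ran from 1710 to 7615 in P. gingivalis and from 4106 to 5373 in PBS libraries, and Ggt1, a gamma-glutamyltransferase, from 2622 to 6653 in P. gingivalis and from 4419 to 6063 in PBS. The differences were 0.52 (SE 0.77) for Ace, 0.32 (SE 0.46) for Mme, -0.54 (SE 0.35) for Dpep1, -0.45 (SE 0.41) for Naaladl1, -0.29 (SE 0.29) for Xpnpep2 and -0.025 (SE 0.21) for Ggt1. Without the 3 libraries with Fabp6 under 100 they were 0.069 for Ace, -0.053 for Mme, -0.15 for Dpep1, 0.039 for Naaladl1, 0.032 for Xpnpep2 and -0.13 for Ggt1. Leaving out 1 library moved Ace between 0.14 (without P. gingivalis replicate 5) and 1.12 (without replicate 6 of that group). Tmprss15, the enteropeptidase of the duodenum, stood at 25.2 and 11.4 in P. gingivalis replicates 1 and 5 and at no more than 0.962 in the other 10 libraries, below the filter.

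Over all 15025 genes tested, the 3 libraries with Fabp6 under 100 were the 3 lowest for 4.93% and the 3 highest for 6.46%. Of the 9 brush border genes they were the 3 lowest for 1, Mep1a, and the 3 highest for 0. Of the 32 other pathway genes they were the 3 lowest for 4 (Dpep1, Naaladl1, Slc1a1 and Slc7a6) and the 3 highest for 7 (Ace, Mme, Slc36a1, Slc3a2, Slc7a8, Slc16a10 and Slc9a3).

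Of the 8 basolateral carriers tested, 5 had a positive and 3 a negative difference, with a median of 0.08. In 3 of them the libraries with Fabp6 under 100 were the 3 highest. Slc7a8, a light chain for neutral amino acids, stood at 2237 and 2036 in P. gingivalis replicates 1 and 5 and at 2244 in PBS replicate 6, against 78.3 to 1214 in the other 9 libraries. Slc3a2, its heavy chain, stood at 2055, 2504 and 2782 in those 3 and at 513 to 1982 in the others, and Slc16a10, a carrier of aromatic amino acids, at 2065, 2679 and 2464 against 439 to 1853. Slc7a7, a light chain for dibasic amino acids, ran from 708 to 1947 in P. gingivalis and from 1258 to 2186 in PBS libraries, and Slc43a2 from 1421 to 6893 in P. gingivalis and from 2630 to 6975 in PBS. The differences of these 5 genes lay between -0.09 and 0.42, that of Slc7a8 being 0.42. Without the libraries with Fabp6 under 100 the difference was 0.072 for Slc7a8, -0.035 for Slc3a2 and -0.013 for Slc16a10. The apical carriers went either way. Slc36a1, a proton-coupled carrier of small amino acids, had 1607, 1201 and 1447 in the libraries with Fabp6 under 100 and 185 to 689 in the others, while Slc1a1, the carrier of acidic amino acids, had 286, 513 and 477 there and 1019 to 1320 elsewhere. The difference of Slc36a1 was 0.47 with and 0.24 without these 3 libraries, and that of Slc1a1 -0.29 with and 0.041 without them. Slc6a20a, an imino acid carrier, ran from 1286 to 2980 in P. gingivalis and from 2287 to 2623 in PBS libraries.

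Slc6a14, a carrier of neutral and cationic amino acids known from the colon, was nearly absent from 11 libraries, at 0 to 11.96 normalized counts, and stood at 924 in P. gingivalis replicate 6. That library also had the lowest Fabp1 and Lct, the lactase gene, at 18.3 and 0.870, together with the lowest values of 6 of the 9 brush border genes. The group difference of Slc6a14 was 0.71 (SE 1.27, limma adjusted p = 0.992); without that library the gene stayed below the filter, so no value without it is given. The size of this difference depended on the method. It was 5.15 (SE 1.54) with DESeq2 on recovered reads, which gave no adjusted p, 0.046 with sample weights, 1.80 without the libraries with Fabp6 under 100, and 0.55 to 1.32 on leaving out any other library. Among the transport partners, Pdzk1, a scaffold under the apical membrane, differed by -0.36 (SE 0.20) and Slc9a3, the sodium and proton exchanger that restores the proton gradient used by PEPT1, by 0.42 (SE 0.53), which was 0.072 without the libraries with Fabp6 under 100. Neither passed (limma adjusted p = 0.992 for each). Tmem27, the partner of Slc6a19 in the kidney, stood at 7.85 or less in all 12 libraries, below the filter.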

How the data were processed

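Polyadenylated RNA from distal ileal tissue was sequenced from TruSeq libraries, per the labels. Tools named in the submitters' processing notes are FastQC, HISAT2, Cufflinks and DESeq2, and the build is GRCm38 (mm10), with versions, counter, strand setting and annotation not given in the sources used here. The deposited signal is a count per gene after scaling by the authors with 1 factor for each library. Dividing by the value of 1 read, fitted to the low values of each library, recovered whole reads (100% within 0.01 of a read). No libraries were copies (smallest chi-square per degree of freedom 6.54).

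Groups follow the treatment label. limma 3.58.1 in R 4.3.3 was run with a mean-variance trend on log2(value + 1), which understates changes of low genes. It covered genes with a mean of at least 10, two-sided, with Benjamini-Hochberg adjustment over all genes. A check on simulated data gave both groups the same spread between libraries, so it does not cover the wider spread of the P. gingivalis libraries. The within-library ratios were tested by exact permutation, with adjustment over 3 ratios. One listed gene and the ratio that uses it are not reported here, though counts over the lists include that gene. Alternatives used edgeR 4.0.16 and DESeq2 1.42.0 on recovered reads and others named last. Exon lengths and gene positions are from GENCODE M21 and promoters from RefSeq. The 9 genes, the lists and the alternatives were chosen with earlier results of these data known. The genes named were the 9, a fixed choice from the pathway and position lists, the 3 genes most like each of the 9, and Slc1a5 and Slc7a6, chosen after their values were seen.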

Additional observations from a re-analysis of the deposited data

Results flagged for a closer look

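Among 72 groups of 6 values, 10 held a library far from the other 5. The rule flags about 1 in 20 groups of independent, normally distributed values. Many of these genes vary together, so that rate is no measure of chance here. The rule flags a library that stands alone in its group, so libraries that lie far out together hide each other. P. gingivalis replicates 1 and 5 both have little Fabp6 and can go unflagged for this reason. PBS replicate 6, the only PBS library with little Fabp6, gave 9 of the 10. Its log2 ratio of Mep1b to Mep1a was 1.29, against -0.24 to 0.14 in the other PBS libraries. Its peptidase genes stood at 28663 for Ace against 2562 to 8545, at 10970 for Mme against 3580 to 5467 and at 6063 for Ggt1 against 4419 to 4735. Its carrier genes stood at 2186 for Slc7a7 against 1258 to 1532, at 2244 for Slc7a8 against 189 to 750 and at 477 for Slc1a1 against 1019 to 1320. Fabp1 stood at 16938 there against 252 to 1814, and Lct at 22535 against 748 to 8833. In P. gingivalis replicate 6, Slc6a14 stood at 924 against 0 to 11.96 in the remaining libraries of its group. None of the 9 brush border genes held such a value by itself.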

How the results depend on the processing

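Under 24 alternatives none of the 9 genes was called, with a lowest adjusted p of 0.677, and none of the 32 other pathway genes was, although DESeq2 gave no adjusted p for Slc6a14. Pseudocounts of 0.5 and 5, no filter or a mean of at least 50, trimmed-mean and upper-quartile rescaling and the replicate block kept every sign of the 9. Of 216 differences 17 changed sign. With the epithelial mean as a covariate these were Enpep at 0.11, Dpp4 at 0.025, Slc15a1 at 0.028, Slc6a19 at 0.010 and Slc3a1 at 0.082, and beside them Ggt1 at 0.050 and Slc43a2 at 0.12. Without the 3 libraries with Fabp6 under 100 they were Enpep at 0.069 and Slc3a1 at 0.077, the log2 ratio of Mep1b to Mep1a at -0.10, and Mme at -0.053, Xpnpep2 at 0.032, Naaladl1 at 0.039, Slc1a1 at 0.041, Slc3a2 at -0.035, Slc16a10 at -0.013, Slc10a2 at 0.13 and Fabp1 at -0.92. With edgeR and DESeq2, Enpep stood at 0.016 and 0.017, Ggt1 at 0.036 and 0.040, Slc43a2 at 0.061 and 0.064 and Lct at 0.63 and 0.64, while Mep1a kept its sign at -0.33 with each. With sample weights Ggt1 stood at 0.049, Slc7a7 at 0.012, Slc43a2 at 0.095 and Lct at 0.32. The cause was not tested.

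Over all genes, limma called 0 higher and 0 lower. The lower calls were 1 with a pseudocount of 5, 3 with the epithelial covariate, 19 with sample weights (and 1 higher) and 30 with DESeq2 (and 3 higher), and 1 gene was higher without the 3 libraries with Fabp6 under 100. Leaving out 1 library in turn gave 0 to 1 higher and 0 to 52 lower, with 52 lower without P. gingivalis replicate 6. It gave differences from 0.00 to 0.37 for Anpep, -0.12 to 0.10 for Enpep, -0.88 to -0.21 for Mep1a, -0.34 to -0.14 for Mep1b, -0.21 to 0.045 for Dpp4, -0.33 to 0.067 for Slc15a1, -0.33 to -0.05 for Slc6a19, -0.17 to 0.056 for Slc3a1 and -0.34 to -0.16 for Slc7a9. Among the other named genes it gave signs of both kinds for Ggt1 (-0.13 to 0.14), Slc1a1 (-0.50 to 0.012), Slc3a2 (-0.077 to 0.38), Slc7a7 (-0.18 to 0.11), Slc16a10 (-0.019 to 0.50), Slc43a2 (-0.17 to 0.29), Fabp1 (-0.51 to 1.58) and Lct (-1.31 to 1.46). Of 1 sign, but moved by over 1.5 times, were Ace (0.14 to 1.12), Mme (0.046 to 0.68), Dpep1 (-0.74 to -0.26), Xpnpep2 (-0.48 to -0.053), Naaladl1 (-0.69 to -0.088), Slc6a20a (-0.34 to -0.096), Slc36a1 (0.21 to 0.82), Slc7a8 (0.097 to 1.07), Pdzk1 (-0.50 to -0.23), Slc9a3 (0.18 to 0.88), Slc6a14 (0.55 to 1.32), Fabp6 (-4.31 to -0.48) and Slc10a2 (-1.84 to -0.18). The log2 ratios ran from -0.23 to -0.10 for Slc7a9 over Slc3a1 and from 0.07 to 0.62 for Mep1b over Mep1a, with exact permutation p of at least 0.0519.

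The labels do not say whether the shared numbers pair the samples. The deviations of same-numbered libraries correlated between -0.54 and 0.08, and 0 of 6 libraries correlated best with its own number. These correlations cannot exclude pairing, because the libraries also differed in the ileal pattern. With the replicate block, limma called 0 higher and 0 lower, 462 genes had an unadjusted p under 0.05, and the ratio tests gave exact p-values of 0.188 for Slc7a9 over Slc3a1 and 0.594 for Mep1b over Mep1a.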
